A study of Danio rerio with 6 samples.

Results

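The phagocyte NADPH oxidase genes described here are cybb, cyba, ncf1, ncf4, rac2 and hvcn1, taken by symbol from the deposited expression table, which held all 6 of them among 15292 genes. All 6 passed the filter on low values (average TPM of 1 or more), which left 10750 genes to test. The rule uses no measured value, although results of the same table were known when the set was drawn up. The libraries hold messenger RNA of the kidney marrow of 6 adult zebrafish, 3 mutant for both copies of grna (grna-/-) and 3 grna+/+ control siblings, with 1 fish per library. grna encodes a granulin, and the question named by the study is what this protein does in myeloid differentiation. No treatment is named, the marrow was a strained suspension of all its cells, and the labels give no strain, sex, age in months or mutant allele.

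In mammals and fish this oxidase carries electrons from NADPH across the membrane of a phagosome onto oxygen and so makes superoxide, which neutrophils and macrophages use to kill microbes. Its membrane core is a flavocytochrome of 2 proteins, and cytosolic proteins join the core only when the cell is activated. Inherited loss of core or cytosolic subunits causes chronic granulomatous disease in humans. Adult zebrafish make their phagocytes in the kidney marrow.

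Between 11080875 and 14075134 reads were counted per library. The grna transcript itself went from 144 ± 8.40 TPM in controls to 70.4 ± 4.59 TPM in mutants (SD, n = 3 each), in the direction of the labels. Its limma adjusted p was 0.0186, and it rose to between 0.0526 and 0.0930 when grna+/+ replicate 3 or any 1 of the mutant libraries was left out. Neutrophil markers were abundant, with lyz at 31281 ± 4186 TPM in grna+/+ marrow and mpx at 1305 ± 450 TPM, and the kidney tubule cadherin gene cdh17 was at 392 ± 76.8 TPM. TPM is a transcript abundance corrected for gene length, so levels of different genes can be set side by side, and each library sums to the same total.

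The membrane core is made of cybb, the catalytic subunit that passes the electrons, and cyba, the partner that holds it stable and docks the cytosolic proteins. For cybb, grna+/+ replicates 1 to 3 held 304, 324 and 312 TPM, and grna-/- replicates 1 to 3 held 241, 156 and 316 TPM. The grna+/+ fish lay within a narrow band, with a coefficient of variation of 3.12%, whereas the grna-/- fish spread over 33.8%, and grna-/- replicate 3 lay among the controls while replicate 2 was the lowest of all. The means of 313 ± 9.78 and 237 ± 80.2 TPM (SD, n = 3 each) gave a log2 fold change of -0.46 (SE 0.233), with an adjusted p of 0.342 in limma.

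For cyba the controls held 339, 497 and 352 TPM and the mutants 244, 193 and 354 TPM. As for cybb, grna-/- replicate 3 reached the control range and replicate 2 was lowest, and grna+/+ replicate 2 stood above the other controls. The means were 396 ± 87.5 and 263 ± 82.1 TPM, a log2 fold change of -0.61 (SE 0.239), with an adjusted p of 0.251 in limma. Within each library the 2 core genes kept close to each other, cyba being 1.01 to 1.54 times cybb.

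Among the cytosolic proteins, ncf1 encodes the organizer that bridges the activated complex to cyba. The 3 controls held 631, 1480.0 and 965 TPM of it, the 3 mutants 368, 380 and 554 TPM. Every grna-/- library was below every grna+/+ library, and the controls themselves differed by more than the distance between the nearest fish of the 2 genotypes. The means were 1025 ± 428 and 434 ± 104 TPM (SD, n = 3 each), so that the grna-/- mean was 42.3% of the grna+/+ mean, the lowest such share of the 6 genes. The log2 fold change was -1.18 (SE 0.297, 95% interval -1.86 to -0.50), with a limma adjusted p of 0.117, or 0.0457 with the replicate numbers as a block. Without grna+/+ replicate 1, the control nearest to the mutants, the adjusted p was 0.0433 and the log2 fold change -1.49. Without grna+/+ replicate 2 they were 0.180 and -0.87. Over all fits with 1 library left out, the limma adjusted p ran from 0.0433 to 0.310.

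ncf4 encodes the subunit that reads a phosphoinositide of the phagosome membrane. Its level was 69.8, 83.0 and 88.9 TPM in controls and 49.1, 43.8 and 59.0 TPM in mutants. The genotypes did not overlap, and the spread was small in both, 12.2% and 15.2% of the mean. The means were 80.6 ± 9.81 and 50.6 ± 7.71 TPM, a log2 fold change of -0.66 (SE 0.168, 95% interval -1.05 to -0.28, limma adjusted p = 0.120, or 0.0789 under the replicate block). Exact two-sided permutation of the 6 values gave p = 0.1 for ncf1 and for ncf4, the smallest value that 3 against 3 can give.

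rac2 encodes the blood cell Rac GTPase that switches the assembled oxidase on and also drives actin remodelling. Controls held 567, 512 and 536 TPM and mutants 588, 424 and 684 TPM. The mutants lay on both sides of the controls, and the means of 539 ± 27.6 and 566 ± 131 TPM gave a log2 fold change of 0.04 (SE 0.174, 95% interval -0.36 to 0.44, limma adjusted p = 0.913). The direction turned to -0.02 when libraries were scaled by median ratios and to -0.11 without grna-/- replicate 3. The related genes rac1a and rac1b were far lower, at 30.3 ± 7.06 and 43.8 ± 6.83 TPM in grna+/+, and their sequences resemble rac2, so the split of reads among them is uncertain.

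hvcn1 encodes the voltage-gated proton channel, whose protons balance the charge of the electrons that the oxidase moves across the membrane. In mammals B cells hold it too. Its TPM was 31.9, 30.7 and 19.6 in controls and 24.4, 32.2 and 20.4 in mutants, so the genotypes overlapped almost fully. The log2 fold change was -0.08 (SE 0.244, 95% interval -0.64 to 0.48, limma adjusted p = 0.881), and its sign turned under 4 alternatives, 3 of them leaving out 1 library. Its highest library was grna-/- replicate 2, the lowest library for cybb, cyba, ncf4 and rac2.

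**Figure D1:**
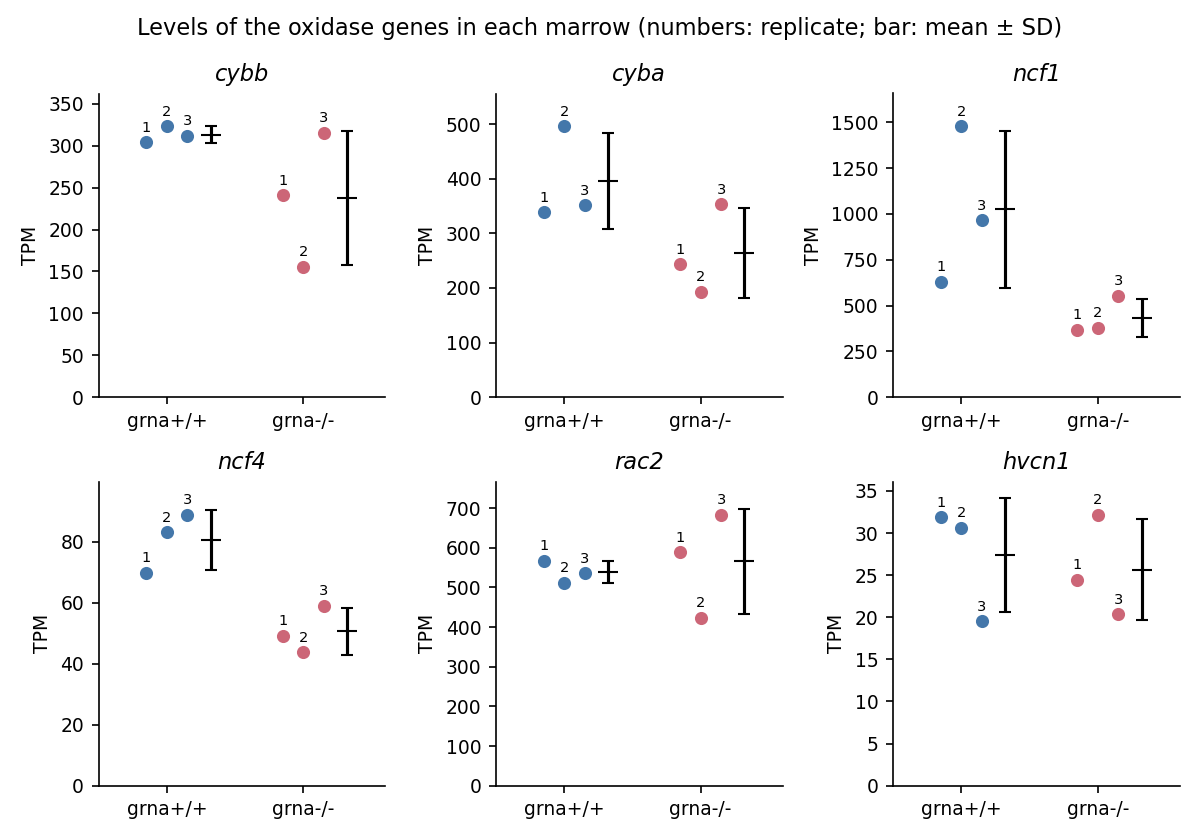
TPM of each of the 6 oxidase genes (vertical axis from 0, own scale per gene) in the 3 grna+/+ and 3 grna-/- libraries; points are fish, numbers are replicates and bars are the mean ± SD. The genotypes are apart for ncf1 (631 to 1480.0 against 368 to 554 TPM) and ncf4 (69.8 to 88.9 against 43.8 to 59.0 TPM) and overlap for the other 4 genes.

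None of the 6 genes was called by limma with Benjamini-Hochberg adjustment over all genes, where 1.15% of tested genes were called, 0.493% lower and 0.66% higher in grna-/-. At an unadjusted p below 0.05 there were 3, namely ncf1, ncf4 and cyba, all lower, against 17.6% of all tested genes (7.61% lower). With the replicate block ncf1 was called lower, against 2.52% of genes in either direction and 1.13% lower. When each library was weighted by its estimated quality, ncf1, ncf4 and cyba were called lower (limma adjusted p = 0.00302, 0.00379 and 0.0382), but 2447 genes were then called over the whole table. The groups did not overlap for 2 of the 6 genes, both lower, against 10.6% of tested genes lower and 14% higher. Of the 6 genes 5 had a fold change below 0, against 42.5% of tested genes, and their median was -0.53 against 0.07 over all tested genes. The marrow was not sorted, so fewer cells that carry the oxidase and less of its messenger RNA per cell cannot be told apart.

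**Figure D2:**
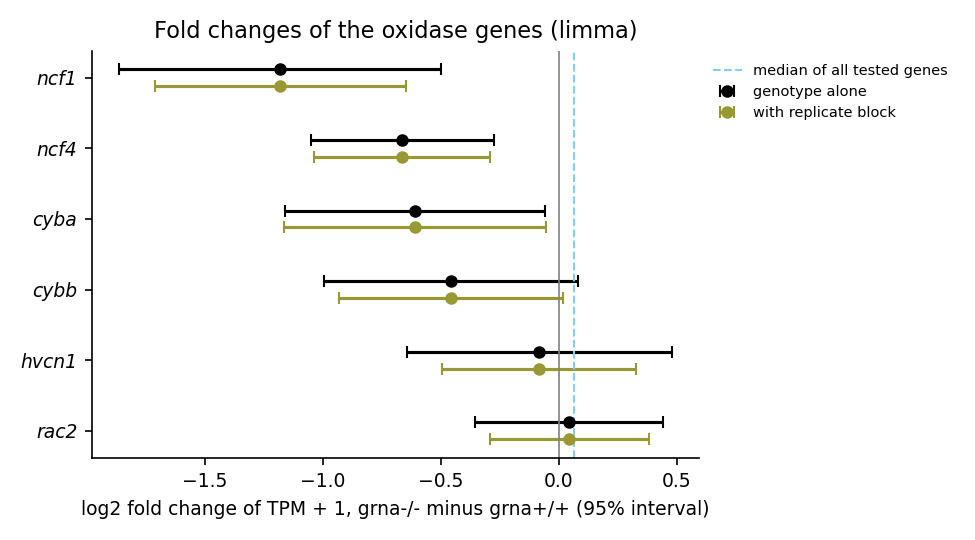
Log2 fold change of TPM + 1, grna-/- minus grna+/+ (horizontal axis), for the 6 genes, with 95% intervals from limma with genotype alone (black) and with the replicate block (olive); the dashed line is the median of all tested genes, 0.07. The intervals of ncf1, ncf4 and cyba lie below 0, those of cybb, hvcn1 and rac2 include it.

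The order of the levels was nearly fixed, apart from its top. Over the 6 libraries rac2 lay above cyba by 0.79 ± 0.439 on the log2(TPM + 1) scale (SD), cyba above cybb by 0.24 ± 0.207, cybb above ncf4 by 2.06 ± 0.248 and ncf4 above hvcn1 by 1.26 ± 0.569. Each of these steps had the same direction in 6 of 6 libraries, a description without a test, since the same values set the order. For ncf1 and rac2, at the top, the step of 0.23 ± 0.816 was smaller than its spread over the libraries. Split by genotype, ncf1 was above rac2 in 3 of 3 grna+/+ libraries and in 0 of 3 grna-/- libraries. Against all genes of a library, ncf1 stood between the percentiles 98.1 and 99.2 and hvcn1 between 69.2 and 78.7.

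Balance between subunits was measured as the ratio of TPM within a library, in which the scale of the library cancels. The marrow was not sorted, and a difference in the mix of cells does not cancel. Of the 15 pairs, 4 had no overlap between genotypes, and all 4 set a core or cytosolic subunit against rac2. With this shared denominator they are not separate results. ncf1 was 1.11, 2.89 and 1.80 times rac2 in grna+/+ and 0.625, 0.896 and 0.809 times rac2 in grna-/-. For ncf4 the ratio was 0.123, 0.162 and 0.166 in grna+/+ and 0.0835, 0.103 and 0.0862 in grna-/-. Per unit of rac2, then, each grna-/- fish held less ncf1 and ncf4 transcript than each control. The part of the cell mix in these ratios was not tested.

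Even cybb, whose TPM overlapped, was apart on this scale, at 0.536, 0.632 and 0.582 times rac2 in grna+/+ and 0.410, 0.367 and 0.462 times in grna-/-. cyba went from 0.597, 0.970 and 0.656 to 0.415, 0.455 and 0.517. In grna-/- replicate 3, however, cybb and cyba lay within the control range of TPM, at 316 and 354 TPM. rac2 was at its highest in that library, 684 TPM, so there the lower ratios came from the denominator. On the log2(TPM + 1) scale the differences were -1.22 for ncf1, -0.71 for ncf4, -0.65 for cyba and -0.50 for cybb. Each had an exact two-sided permutation p of 0.1, the smallest possible, and 0.375 adjusted over the 15 pairs, so none can pass with 3 fish a group. When any 1 library was left out, the difference stayed below 0 for each of the 4, between -1.57 and -0.88 for ncf1 and between -0.58 and -0.42 for cybb. Of all other tested genes, 6.78% had a ratio to rac2 that was lower in grna-/- without overlap and 7.71% one that was higher. hvcn1 against rac2 overlapped (exact permutation p = 0.9).

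**Figure D3:**
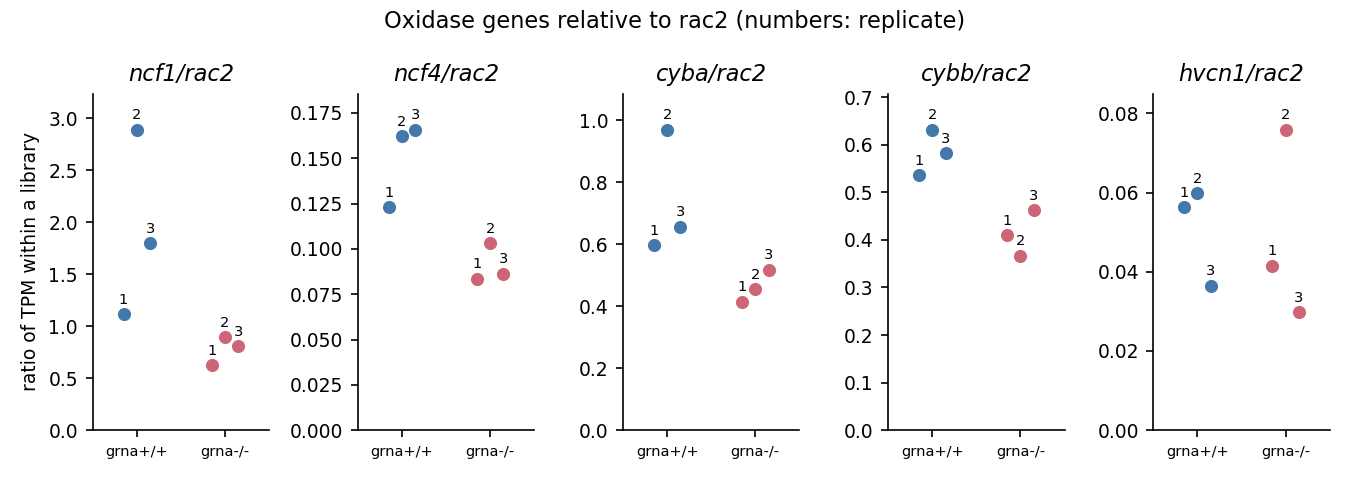
Ratio of the TPM of ncf1, ncf4, cyba, cybb and hvcn1 to that of rac2 in the same library (vertical axes from 0, own scale per gene), by genotype; points are fish and numbers are replicates. All 3 grna-/- fish lie below all 3 grna+/+ fish for the first 4 genes, as for cybb with 0.367 to 0.462 against 0.536 to 0.632, and not for hvcn1.

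Among the core and cytosolic subunits themselves, no ratio separated the genotypes. ncf1 was 2.08, 4.57 and 3.09 times cybb in grna+/+ and 1.53, 2.44 and 1.75 times in grna-/- (exact permutation p = 0.2, adjusted p = 0.375). ncf4 relative to cyba averaged 0.209 ± 0.0427 in grna+/+ and 0.198 ± 0.0302 in grna-/- (SD, n = 3 each; exact permutation p = 0.8). As a share of the summed TPM of the 6 genes, ncf1 took 32.5%, 50.6% and 42.4% in grna+/+ and 24.3%, 30.9% and 27.9% in grna-/-. rac2 took 29.2%, 17.5% and 23.6% and then 38.8%, 34.5% and 34.4%. The sum of the 6 genes was 1943, 2926 and 2274 TPM in grna+/+ and 1515, 1229 and 1986 TPM in grna-/-, with grna-/- replicate 3 inside the control range.

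Neutrophil markers were lower in the grna-/- libraries on the whole list, though none was called, and macrophage markers were mixed. In the neutrophil list, 10 of 12 genes were in the table and 9 were tested, 9 of 9 had a fold change below 0, and the median was -0.73. With the replicate block 4 of the 9 were called lower, lect2l, srgn, illr4 and adam8a (limma adjusted p from 0.0144 to 0.0487), against 1.13% of all tested genes. Its summed level was 48204 to 55830 TPM in grna+/+ and 24964 to 46693 TPM in grna-/-. The mean of its tested genes, centred per gene on the 6 libraries, was 0.21, 0.60 and 0.49 on the log2(TPM + 1) scale in grna+/+ and -0.31, -0.96 and -0.04 in grna-/-. grna-/- replicate 2 was lowest here too, and replicate 3 nearest to the controls. The same grna-/- replicate 2 was highest in kidney tubule markers, of which 6 of 7 listed were in the table and tested and none was called. Their centred mean was 0.80 in that library and between -0.52 and 0.07 in the other 5, and their sum was 1152 to 1709 TPM in grna+/+ and 1537 to 3146 TPM in grna-/-, with slc20a1a at 938 and cdh17 at 742 TPM in replicate 2. The part of neutrophil or tubule markers in the lower oxidase levels was not tested.

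The macrophage list, with 12 of 14 genes in the table, 11 tested and none called, was mixed, with 7 fold changes above 0, 4 below and a median of 0.22. Its sum was 3488 to 4166 TPM in grna+/+ and 4246 to 5173 TPM in grna-/-, but cd74a and cd74b, which encode the invariant chain of antigen presentation, made the difference. Without them the other 10 genes summed to 1617 to 1705 TPM in grna+/+ and 1480 to 1601 TPM in grna-/-, lower in each mutant than in each control. That separation leaned on single genes. With ctss2.1 also left out, at 409 to 427 TPM in grna+/+ and 244 to 309 TPM in grna-/-, the sums overlapped. The log2 fold change was -0.59 for ctss2.1, -0.49 for mpeg1.2, -0.32 for mrc1b and -0.14 for csf1ra. It was above 0 for mpeg1.1 (0.32), mfap4 (0.30), c1qb (0.26), c1qa (0.22) and c1qc (0.11). Without cd74a and cd74b the median of the 9 tested genes was 0.11. For eosinophils and mast cells 3 of 5 genes were in the table, at 2319 to 2854 and 1586 to 2497 TPM in sum, and their part was not tested. Erythroid markers summed to 23157 to 55185 TPM in grna+/+ and 86904 to 103044 TPM in grna-/- (11 of 12 genes in the table and 10 tested), and a larger share of TPM in these genes lowers that of all others. alas2, epb41b and ank1a were called higher, 6 genes of the list with the replicate block, and with 1 library left out 4 without grna+/+ replicate 2, 1 without grna+/+ replicate 1 and 0 without any 1 of the other 4. After the erythroid list was taken out and TPM rescaled, the log2 fold change was -1.10 for ncf1, -0.58 for ncf4, -0.53 for cyba and -0.38 for cybb. The 4 B cell markers in the table, of 9 listed, summed to 193 to 345 and 228 to 401 TPM, and the 10 T and cytotoxic markers of 13 listed to 152 to 319 and 151 to 209 TPM. The upper control sum came from nkl.1, at 197 TPM in grna+/+ replicate 2, and without it the other 9 summed to 122 to 154 and 147 to 186 TPM. Of these 14 lymphoid genes none was called. Thrombocyte markers, 5 of 7 in the table and tested, summed to 229 to 546 TPM in grna+/+ and 153 to 219 TPM in grna-/-. Of these, f13a1a.1 was called lower, though not without grna-/- replicate 2. It held 88.7, 394 and 50.3 TPM in grna+/+ and 0.278, 0.408 and 1.48 TPM in grna-/-. Without f13a1a.1 the thrombocyte sums of the genotypes overlapped. With the replicate block gp1bb was also called, higher in grna-/-. Of endothelial markers, 7 of 7 tested, stab2 was called lower, a call kept in 1 of the 6 fits with 1 library left out. The endothelial sum was 105 to 151 TPM in grna+/+ and 62.1 to 99.4 TPM in grna-/-. Without stab2, at 15.5 to 22.8 and 3.19 to 7.92 TPM, these sums overlapped.

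**Figure D4:**
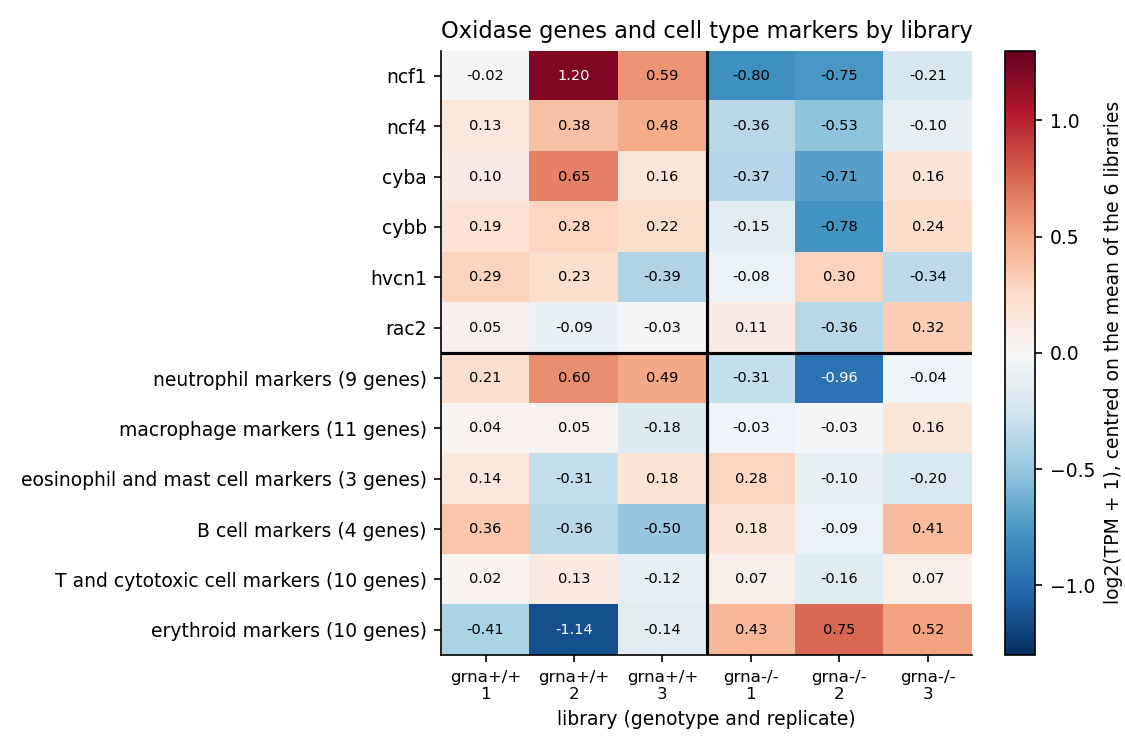
Log2(TPM + 1) of each oxidase gene (upper rows) and mean of the tested genes of each marker list (lower rows) per library, centred on the mean of the 6 libraries; red is above and blue below that mean. ncf1 is highest in grna+/+ replicate 2, and grna-/- replicate 2 is low both for cybb (-0.78) and for neutrophil markers (-0.96).

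Set against neutrophil reference genes, the direction of several subunits depended on which genes served as the reference. The reference was the mean log2(TPM + 1) of mpx, lyz, npsn and lect2l, although npsn was listed at 0 in 4 of 6 libraries and reached 2.18 TPM at most. Relative to it, ncf1 differed by -0.88 (exact permutation p = 0.2), ncf4 by -0.37 (p = 0.2 by the same exact test), cyba by -0.31 (exact p = 0.3) and cybb by -0.16 (exact p = 0.1). rac2 differed by 0.34 (exact p = 0.1, 0.30 adjusted over the 6 genes) and hvcn1 by 0.22 (exact p = 0.9). With npsn in the reference, rac2 was higher, and cybb lower, in each grna-/- library than in each control. Without npsn, above 0 only in grna+/+ replicate 2 and grna-/- replicate 3, the genotypes overlapped for both genes. The share of all tested genes without overlap on this scale was not computed. Without npsn the value was -0.78 for ncf1, -0.27 for ncf4, -0.21 for cyba, -0.06 for cybb and 0.44 for rac2. Against the whole neutrophil list ncf1 remained below 0, at -0.31, whereas cybb, cyba and ncf4 turned to 0.42, 0.26 and 0.21. Against the macrophage list ncf1 was at -1.24, ncf4 at -0.73, cyba at -0.67, cybb at -0.52 and rac2 at -0.02. Within that neutrophil list the lectin-like gene illr4, at 790 ± 102 and 314 ± 127 TPM, was further below its controls than mpx, at 1305 ± 450 and 1234 ± 536 TPM.

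The next genes steer or stabilise the oxidase. Of 33 listed activators and regulators 25 were in the table and tested, none was called, and the median log2 fold change was -0.04 against 0.07 over all tested genes. The groups did not overlap for 4 lower and 1 higher of these 25, against 10.6% lower and 14% higher of all tested genes. Lowest in p was rap1b, a Ras-family GTPase, at 234 ± 6.80 TPM in controls and 177 ± 19.2 TPM in mutants (adjusted p = 0.178, limma). cybc1, the chaperone that in mice and humans keeps the flavocytochrome core abundant, held 61.3, 60.9 and 60.4 TPM in controls and 51.4, 40.5 and 42.9 TPM in mutants. The controls were almost equal and every mutant was below them, with a log2 fold change of -0.44 (limma adjusted p = 0.206). The stress kinase gene mapk14b averaged 13.5 ± 2.74 and 18.5 ± 1.68 TPM (adjusted p = 0.276 by limma).

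Upstream of the oxidase, 8 of 19 listed receptors and kinases were in the table and tested, none was called, 6 had a fold change below 0 and the median was -0.16. The tumour necrosis factor receptor gene tnfrsf1a averaged 110.3 ± 28.4 TPM in controls and 63.2 ± 4.70 TPM in mutants (adjusted p = 0.129, limma). The Src-family kinase gene lyn averaged 96.6 ± 24.0 and 62.3 ± 6.26 TPM (limma adjusted p = 0.185), and the granulocyte growth factor receptor gene csf3r 217 ± 13.3 and 175 ± 25.2 TPM (limma adjusted p = 0.292). In these 3, named for the smallest p in the list, the genotypes did not overlap, against 10.6% of all tested genes that were lower without overlap.

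Other oxidases of the family were at low levels. nox1, noxo1a, noxo1b and noxa1, the 4 of 9 listed that were in the table, summed to 1.15 to 4.74 TPM in grna+/+ and 0.893 to 2.16 TPM in grna-/-, and none passed the filter. Of 20 listed enzymes and channels that handle superoxide and peroxide 19 were in the table and 18 tested, none was called and the median was -0.02, with sod3a listed at 0 throughout. The glutathione peroxidase gene gpx1a averaged 494 ± 108 and 816 ± 40.1 TPM (limma adjusted p = 0.0838), the mitochondrial dismutase gene sod2 74.2 ± 5.71 and 100.4 ± 13.4 TPM (limma adjusted p = 0.216) and the peroxiredoxin gene prdx1 179 ± 72.0 and 320.4 ± 76.8 TPM (limma adjusted p = 0.224). The genotypes did not overlap for these 3, all with higher values in grna-/-, nor for 2 further such genes of the list, against 14% of all tested genes. The glutathione reductase gene gsr lay the other way without overlap, at 237 ± 27.5 and 158 ± 56.5 TPM (log2 fold change -0.65), against 10.6% of tested genes, and the thioredoxin gene txn was at -1.01 with overlap.

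Of 12 transcription factors listed for acting on oxidase genes in mammals, 11 were in the table and 10 were tested. By the limma call cebpa alone fell, from 875, 1320.0 and 1004 TPM to 542, 607 and 515 TPM (limma adjusted p = 0.0457), and the list median was -0.28. That call was lost in 9 of 16 limma alternatives, among them 5 of the 6 that left out 1 library (all but the one without grna+/+ replicate 1), with adjusted p from 0.00118 to 0.155 and a log2 fold change from -1.06 to -0.76. cebpb and cebpd had adjusted p of 0.0907 and 0.149 in limma, and of 0.0463 and 0.0373 with the replicate block. The groups did not overlap for 5 lower and 1 higher of these 10 factors, against 10.6% lower and 14% higher of all tested genes. Higher was irf8, at 81.7 ± 17.4 TPM in controls and 109 ± 3.71 TPM in mutants (log2 fold change 0.43). Of the PU.1 genes, spi1a was at 385.6 TPM in grna+/+ replicate 2, the fish with the highest ncf1, and between 126 and 189 TPM in the other 5. That fish also held the most nkl.1, at 197 TPM, and a link between spi1a and ncf1 was not tested. spi1b averaged 361 ± 44.8 and 294 ± 44.2 TPM.

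Likeness of pattern was measured as the root mean square difference of centred log2(TPM + 1) over the 6 libraries. The search covered 6226 genes with a mean of at least 10 TPM, leaving out the oxidase genes and symbols with a colon or starting with loc. All these genes share the same 6 libraries and their depth, so likeness describes the profiles and carries no test. Within the oxidase, cybb and cyba were most alike (0.189), followed by cyba and ncf4 (0.217), and ncf1 and hvcn1 were least alike (0.780). Nearest to ncf1 were rgs2, a regulator of G protein signalling (0.101), and irf2a, an interferon regulatory factor gene (0.114). rgs2 held 48.5, 124 and 87.1 TPM in controls and 30.0, 27.2 and 41.6 TPM in mutants. The order of the controls was that of ncf1, which a search for likeness favours. ncf4 was nearest to the syntaxin gene stx11a (0.0801) and the actin nucleator subunit gene arpc5a (0.0857). The closest profile to cyba was the NAD kinase gene nadka (0.0606), then tmed8 (0.0983), and to cybb the pleckstrin gene plek (0.105) and pef1 (0.107). For rac2 they were gtf2a2 (0.0560) and babam1 (0.0584), and for hvcn1 the lysosomal protease gene lgmn (0.0637) and tmem254 (0.0863).

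**Figure D5:**
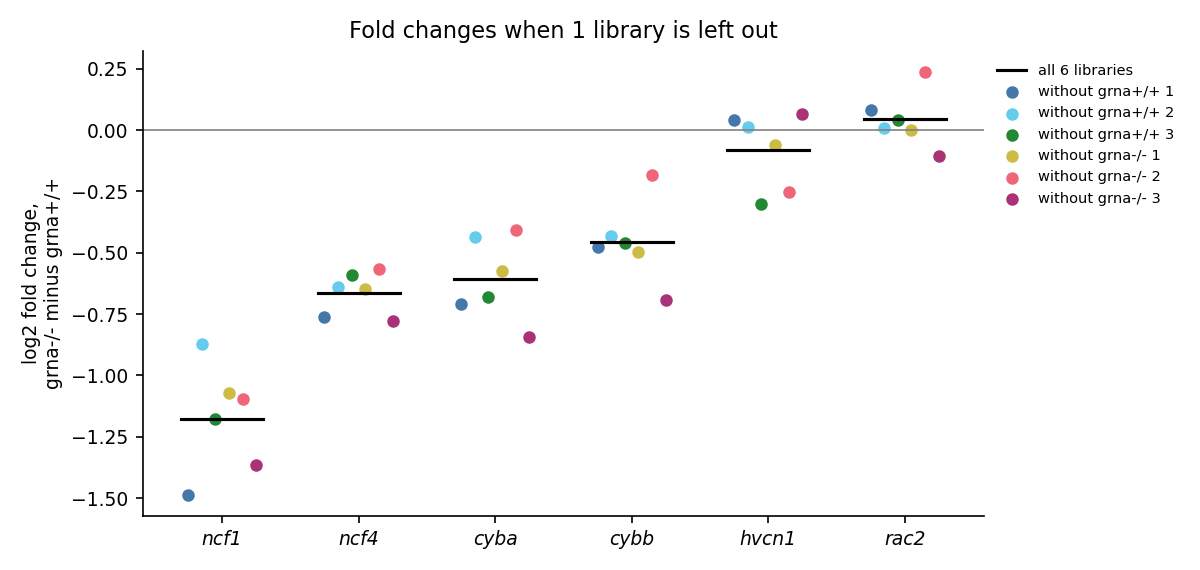
Log2 fold change, grna-/- minus grna+/+ (vertical axis), of each oxidase gene with all 6 libraries (black line) and with 1 library left out (coloured points). ncf1 stays between -1.49 and -0.87 and ncf4 between -0.78 and -0.57, cybb moves to -0.18 without grna-/- replicate 2, and hvcn1 and rac2 take both signs.

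As that plot of left-out libraries shows, the genes differed in how much they leaned on one fish. Without grna-/- replicate 2 the log2 fold change of cybb was -0.18 instead of -0.46, and without replicate 3 it was -0.69. For cyba the values ran from -0.84 to -0.41. ncf4 moved least of the 4 core and cytosolic genes, from -0.78 to -0.57, with limma adjusted p between 0.083 and 0.318.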

How the data were processed

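Kidney marrow RNA of 6 fish was measured, with genotype read from the genotype label and the replicate number from the title. The authors deposited 1 table of TPM, a unit per gene length and library. The submitters' processing notes list featureCounts, Subread and DESeq2 1.26.0 beside GRCz10 and danRer10. How TPM was computed, and whether strand counted, is not given in the sources read. A row named Total, read as the number of counted reads, was left out.

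limma 3.58.1 (R 4.3.3) was fitted to log2(TPM + 1) of genes averaging at least 1 TPM, with genotype as the single term and a variance trend. Its p-values are two-sided and adjusted by Benjamini-Hochberg over all genes, with a threshold of 0.05. The fit was tested on simulated data with independent noise of equal spread for all genes. Such data hold no shifts shared by genes of a library, so that test does not cover them. Fold changes on this scale understate those of low genes. Ratios and levels relative to reference genes used exact permutation tests. Neighbouring levels are given without the planned test, since the same values set their order. A gene is said to have risen or fallen if called. From each list the called genes and the 3 with the smallest p are named, and for each oxidase gene the 2 nearest profiles. Further genes, chosen once their values were known, are cdh17, slc20a1a, rac1a, rac1b, illr4, lect2l, srgn, adam8a, cd74a, cd74b, ctss2.1, mpeg1.1, mpeg1.2, mfap4, c1qa, c1qb, c1qc, mrc1b, csf1ra, nkl.1, gp1bb, gsr, txn, sod3a, irf8, spi1a and spi1b. The symbols of 3 list genes were matched through RefSeq synonyms (assembly GRCz12tu), and no coordinates are printed.

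Members and lists were chosen with earlier results of these data known. Results of some oxidase genes are not reported here. Each replicate is a fish of its own, and p-values reflect the variation among such fish. The deviations of fish that share a number correlated at 0.136, 0.153 and 0.237 across tested genes. Each lies above the bound of 0.1, so the numbers were used as a block in an alternative fit. That choice came from the data, and no label says what a shared number means. Whether the numbers pair the fish was not tested, and calls made only with the block rest on that choice. The fit without the block stayed the reported one. Alternatives changed the pseudocount, filter, scaling, variance model, weights, block and libraries.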

Additional observations from a re-analysis of the deposited data

How the results depend on the processing

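Calls, fold changes and gene lists were refitted under 16 alternatives in limma, the lists after the data were seen; ratios, values relative to reference genes and the order of levels were recomputed under 9, 13 and 7. The log2 fold changes of ncf1, ncf4, cyba and cybb kept their direction under each. Calls appeared with library weights (3 members, with log2 fold changes of -1.27 for ncf1, -0.79 for ncf4 and -0.52 for cyba; 2447 genes in all), with the replicate block (1 member, ncf1 at -1.18; 271 genes) and without grna+/+ replicate 1. With 1 library left out, 0 to 1 members and 16 to 204 genes were called, against 124. Without a filter 44 genes were called, at a mean of at least 10 TPM 59, and without the variance trend 76. The block changed no other member's call. With library weights the lists of activators, receptors, peroxide handling and transcription factors had 5, 3, 6 and 5 calls, against 0, 0, 0 and 1. The transcription factors had 3 with the block, 0 with median-of-ratios scaling, without the variance trend, without a filter and at a mean of at least 10 TPM, and 0 to 2 with 1 library left out. The cause was not tested.

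Directions turned where differences were small. hvcn1 was at 0.23 with library weights, 0.04 and 0.01 without grna+/+ replicates 1 and 2, and 0.066 without grna-/- replicate 3; over single libraries left out it ran from -0.30 to 0.066. rac2 was at -0.025 with median-of-ratios scaling and ran from -0.11 to 0.24. Leaving out 1 library, ncf1 ran from -1.49 to -0.87, ncf4/cyba from -0.20 to 0.092, cybb/hvcn1 from -0.76 to 0.070, hvcn1/rac2 from -0.49 to 0.17 and ncf1 over rac2 from -0.028 to 0.41. Relative to the whole neutrophil list, cybb, cyba and ncf4 were at 0.42, 0.26 and 0.21. Relative to the macrophage list, rac2 and hvcn1 were at -0.018 and -0.14. Relative to the reference of mpx, lyz, npsn and lect2l, hvcn1 ran from -0.24 to 0.60 over left-out libraries. With 3 fish a group, exact tests of single values cannot pass. Reads per gene were not used, so counting error of low genes such as hvcn1 is not given.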
